A study of Mus musculus with 4 samples.

Results

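Gm42418, AY036118 and Gm26917 are 3 noncoding genes that lie side by side, in part on top of each other, in a copy of the ribosomal RNA gene on mouse chromosome 17. They were chosen by their read counts as targets in AGO2-CLASH, where they rank 2, 3 and 4 among 8440 listed target genes, behind Rn18s-rs5, a gene annotated on the minus strand over 18S ribosomal RNA. Gm26917, the last inside this choice, had 1598 reads, and Ncbp3, the next gene, had 1122. The levels are therefore given as a description and were not tested. A total of 5806 distinct reads, of 29067 distinct reads in all, were listed with at least 1 of the 3 genes, and these were sequenced 7740 times. Gm42418 was listed with 2862 distinct reads, AY036118 with 1713 and Gm26917 with 1269.

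The cells were primary mesangial cells (MMC), contractile cells that support the capillaries of the kidney glomerulus. They came from C57BL/6J mice that were wild type (WT) or carried a deletion at the miRNA gene miR-379 made with CRISPR-Cas9 nickase (miR-379KO). No treatment of the cultures is named for these libraries, and the study cross-linked the cells with UV light before AGO2 was isolated. The study's design scheme draws mesangial cells for CLASH from male mice, and the age of the mice is not given for these libraries. In AGO2-CLASH, RNAs held together by the AGO2 protein are ligated to each other, so that a hybrid (chimeric) read joins a segment of a miRNA to a segment of the RNA listed as its target. There were 2 libraries, A and B, of each genotype, and the study calls A and B replicates and, for the matching AGO2-IP libraries, independent samples. Whether they are separate cultures or mice is not given for the chimeric libraries, so that p-values measure only the spread between these libraries. The WT libraries A and B held 16324 and 7192 chimeric reads, and the miR-379KO libraries A and B held 6326 and 6476. Where 4 values follow each other below, WT comes before miR-379KO and A before B.

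Of the genes that mark mesangial cells, 7 of 10 were listed as targets, with 34 to 70 reads summed over the list in each library. Of the 184 reads on this list, Acta2 held 86, Col4a1 57 and Vim 18, while Itga8, Gata3 and Thy1 held none. A listing as a target does not measure expression. Podocyte markers gave 0 to 3 reads in each library, and no endothelial, tubular or leukocyte marker was listed. Of the deleted miRNA itself, with a read on several transcripts counted once, miR-379-5p was listed with 2 reads in WT A, 1 in WT B and 0 in both miR-379KO libraries. The study's partial list of hybrids prints higher read counts for miR-379-5p with Fis1 and Rprd2. None of the 7740 reads of the 3 genes was listed with miR-379-5p or miR-379-3p, a count of 0 that allows a share of up to 0.0388%. WT B and miR-379KO A also stood apart from the other libraries in how often a sequence recurred, with 1.67 and 1.58 reads of the 3 genes for each distinct sequence against 1.18 in WT A and 1.16 in the B library of miR-379KO.

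Ribosomal RNA is made in the nucleolus as a long precursor, in which the small-subunit 18S RNA is preceded by an external transcribed spacer and followed by an internal transcribed spacer. The spacers are cut away and degraded while the ribosomal subunits are built, whereas 18S RNA stays in the cytoplasmic ribosome and is among the most abundant RNAs of any cell. A miRNA bound by AGO2 normally finds its target by base pairing of its seed, the bases 2 to 8 from its 5′ end.

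On the GRCm38 build, Gm26917 (ENSMUSG00000097971.3) lies on the plus strand at chr17:39843013-39846341, with a single exon of 3329 nt in the transcript used here, and ends 12 nt before the 18S gene. RefSeq places 18S RNA on the plus strand at chr17:39846354-39848202, over 1849 nt. Gm42418 (ENSMUSG00000098178.1) lies on the same strand at chr17:39846958-39848788 and has 1 exon of 1831 nt. Its first 1245 nt fall inside 18S RNA and its last 586 nt lie downstream, on the side of the internal spacer. AY036118 (ENSMUSG00000105361.1) is annotated on the minus strand at chr17:39847113-39848035, with 1 exon of 923 nt that lies wholly inside Gm42418 and inside 18S RNA. All 3 genes are annotated as lincRNA. Thus a read of 18S RNA is in sense to Gm42418 and in antisense to AY036118.

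The sequences that recur in the reads are shown first, because the results below turn on them. Mature miRNAs are from RefSeq (GRCm38.p6), where 6 of the 8 named miRNAs were matched, and their seeds are in capitals:
miR-2137: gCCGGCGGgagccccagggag
miR-149-3p: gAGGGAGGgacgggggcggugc
miR-5126: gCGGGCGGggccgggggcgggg
miR-6392-5p: uCUGGCGCccugguccugucagc
The seeds differ, but all 4 miRNAs are rich in G and C. Segments that the reads often carried for these miRNAs are given next as DNA, with bases that differ from the mature miRNA in capitals:
segment listed as miR-2137: gccggcgggagccccGgggag
segment listed as miR-149-3p: gagggaCggCcgggggc
longer segment listed as miR-5126: gcgggcggggccgggggTgggg
segment listed as miR-6392-5p: cctggtcctgtc
The first carried A16G, the second G7C and A10C, and the third C18T, with position 1 being the first base of the miRNA. The fourth equals bases 9 to 20 of its miRNA and does not reach the seed. Finally, 3 stretches of the ribosomal DNA copy on the plus strand of GRCm38 are given, namely the target of the most frequent read and a pair of stretches that contain a miRNA-listed segment, which is in capitals:
Gm42418 bases 523 to 548, chr17:39847480-39847505: gacccgccgggcagcttccgggaaac
18S RNA within Gm42418, chr17:39847276-39847305: ttaaGAGGGACGGCCGGGGGCattcgtatt
3′ end of Gm26917, chr17:39846298-39846327: gctctctgtcccgCCTGGTCCTGTCccacc

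Gm42418 was listed with 1456 and 890 reads in WT A and B and 927 and 745 in miR-379KO A and B. Per 10000 chimeric reads of the library this was 892 (95% Clopper-Pearson interval 849 to 937), 1237 (1162 to 1316), 1465 (1379 to 1555) and 1150 (1074 to 1231). WT A was the lowest and miR-379KO A the highest, with WT B between the 2 miR-379KO libraries, so the genotypes overlapped. AY036118 was listed with 979, 421, 356 and 410 reads in the same order, or 600, 585, 563 and 633 per 10000. These 4 values lay close together, and the intervals of all 4 libraries overlapped. Gm26917 was listed with 473, 446, 308 and 371 reads, or 290, 620, 487 and 573 per 10000. Here WT A was far below the other libraries while WT B was the highest, so the spread within WT was wider than the distance between the genotypes.

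**Figure D1:**
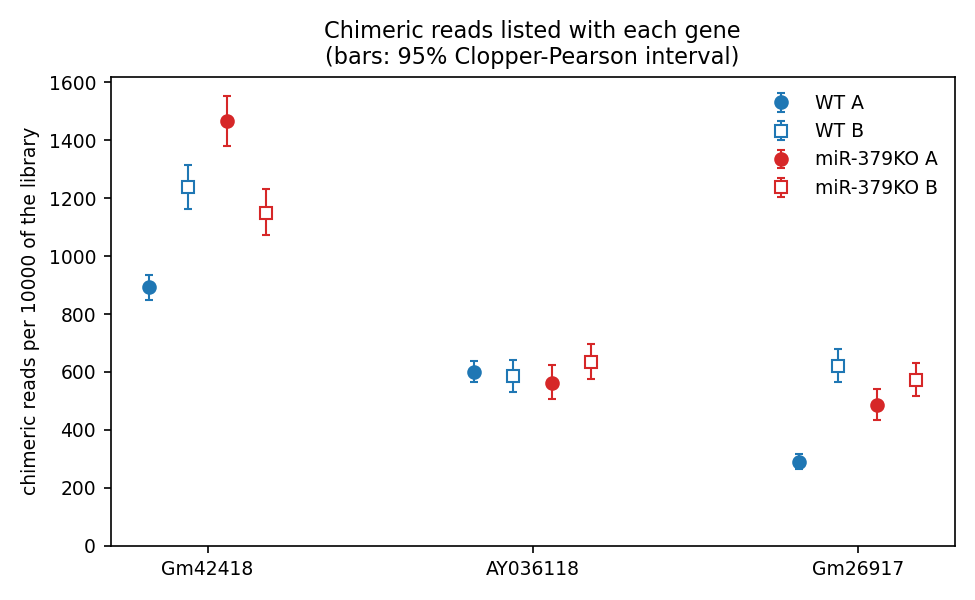
Chimeric reads listed with Gm42418, AY036118 and Gm26917 per 10000 chimeric reads of each library (y axis, linear from 0), with 1 point per library and bars for the 95% Clopper-Pearson interval, which covers counting error only. WT A is lowest for Gm42418 (892) and Gm26917 (290), whereas AY036118 stays between 563 and 633 in all 4 libraries.

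The order of the levels over the 4 libraries was Gm42418 (1186 ± 237 per 10000, SD, n = 4), AY036118 (595 ± 29.5) and Gm26917 (492 ± 146). Gm42418 was above both others in every library, whereas AY036118 and Gm26917 changed places in WT B and did not differ beyond their spread. These are levels of reads listed with a gene and are not corrected for the length of the gene.

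Whether loss of miR-379 changed how often the 3 genes were captured was asked over all target genes with at least 10 reads. None of the 3 genes passed the test. The log2 fold change of WT over miR-379KO was -0.44 (SE 0.28) for Gm42418, with an adjusted p of 0.964 by edgeR's quasi-likelihood test. It was -0.13 (SE 0.33, adjusted p 0.970) for AY036118 and -0.38 (SE 0.35, adjusted p 0.964) for Gm26917 in the same edgeR fit. For Gm26917 it was -0.95 without WT B (edgeR p 0.041, adjusted p 0.531) and -0.04 without WT A, and for AY036118 the values ranged from -0.39 without miR-379KO A to -0.07 without WT B. The fit called 0 of 686 genes, which is 0% of the genes tested; 25 genes had an unadjusted p under 0.05, and DESeq2 also called 0, with 8 genes under 0.05. The median log2 fold change over all 686 genes was 0.25. Counted as 1 feature, the 3 genes gave -0.37 (SE 0.21, edgeR adjusted p 0.968).

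As a share of all chimeric reads, any of the 3 genes was listed with 17.7% and 24.4% in WT A and B and 25.2% and 23.3% in miR-379KO A and B. Set against the miR-379KO library most like it in reads per distinct sequence, WT A differed by -5.66 percentage points and WT B by -0.776 points. The difference of the genotype means was -3.22 points, with a p of 0.67 in a two-sided exact permutation test, for which 2 libraries against 2 cannot go below 0.33. Without WT A the difference was 0.133 points.

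The 3 genes shared few reads with each other, although 2 of them cover the same bases. Only 42 of the 7740 reads (38 distinct reads, 0.543% of the reads) were listed with 2 of the genes, always Gm42418 with AY036118, and none with all 3. By library these were 23, 4, 0 and 15 reads. Every one of the 1713 distinct reads of AY036118 was also listed with Rn18s-rs5, against 5.18% of the reads of Gm42418 and none of Gm26917. No read was listed with any further gene. In the 923 nt that belong to Gm42418, AY036118 and Rn18s-rs5 alike, 4854 reads had their target segment: 55.4% of them were listed with Gm42418 alone, 43.8% with AY036118 and Rn18s-rs5, and 0.865% with all of these. The same bases of 18S RNA were thus divided between a gene in sense and a pair of genes in antisense, read by read.

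All but 1 of the 7740 reads carried the plus strand of the ribosomal DNA copy, which is the strand of ribosomal RNA. All 4018 reads of Gm42418 and all 1598 reads of Gm26917 were aligned in sense, and AY036118 was aligned in antisense in 100% of its reads in 3 libraries and in all but 0.238% in WT B. The genes thus differed in orientation as their annotated strands do. The duplex that was deposited with a read is drawn on the strand of the listed transcript. For Gm42418, the deposited target site was found on the strand of the read in 75.1% of distinct reads and on its complement in none. For AY036118, it was the complement of the sequenced segment in 88.2% of distinct reads, so that the duplex, its score and its energy describe bases that the read does not contain. In 24.9% of the distinct reads of Gm42418, 31.1% of Gm26917 and 11.7% of AY036118 the site lay partly outside the sequenced target segment.

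On the sequenced strand, a match to miRNA bases 2 to 7, called a seed match here, was found in 45.6% ± 12.9 (SD, n = 4) of the reads of Gm42418, in 16.4% ± 3.13 of those of Gm26917 and in 0.325% ± 0.347 of those of AY036118. On the strand of the annotated transcript, AY036118 had a match in 28.0% ± 7.32 of its reads. For Gm42418 the shares were 32.1% and 59.6% in WT A and B and 53.3% and 37.6% in miR-379KO A and B, so WT B and miR-379KO A lay above the other 2 libraries.

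Along the copy, 76.8% of the reads of the 3 genes had the middle of their target segment inside 18S RNA, 20.6% before it and 2.53% after it. Within Gm42418, 3822 reads fell on the 1245 nt of 18S RNA and 196 on the 586 nt downstream, or 3070 and 334 reads per 1000 nt. The downstream share was 5.49% and 3.60% in WT A and B and 4.31% and 5.91% in miR-379KO A and B, and so was low in all 4 libraries. Most reads of Gm42418 and all reads of AY036118 thus held bases of 18S RNA, whereas those of Gm26917 lay upstream, on the side of the external spacer.

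**Figure D2:**
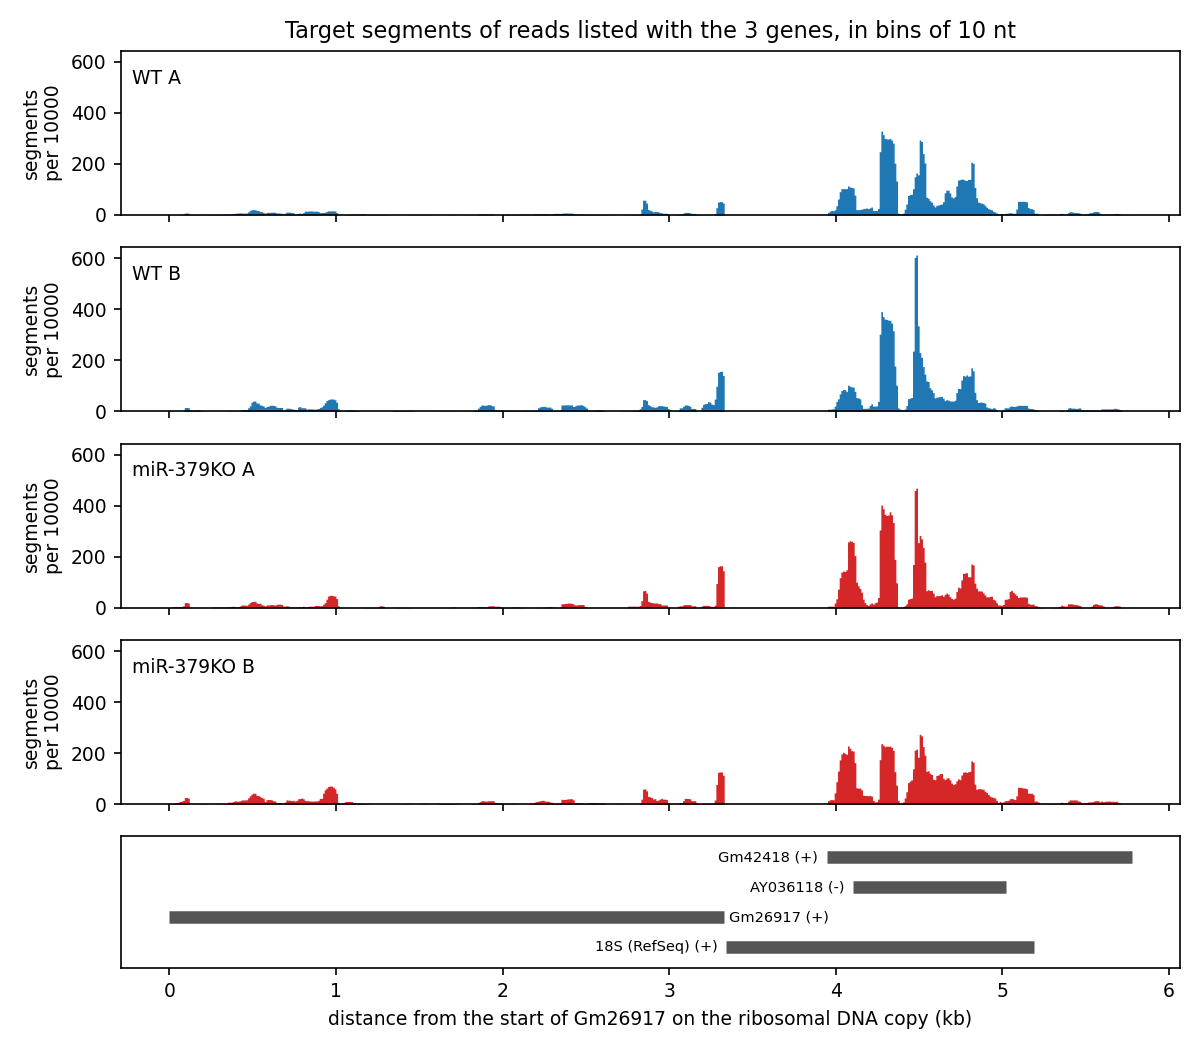
Depth of target segments along the ribosomal DNA copy (x axis, distance in kb from the start of Gm26917) in each library, as segments per 10000 chimeric reads in bins of 10 nt (y axis, the same scale in all panels). The lowest panel draws the 3 genes and 18S RNA to scale with their strands; the tallest peak, in WT B, lies over bases 501 to 550 of Gm42418.

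Reads were concentrated in a few windows of 50 nt. In Gm42418 the 3 leading windows of 37 held 50.6% of its reads, in AY036118 3 of 19 held 52.1%, and in Gm26917 3 of 67 held 41.8%, while 9 windows of Gm26917 held no read. The leading window of Gm42418, bases 501 to 550 (chr17:39847458-39847507), held 121 and 395 reads in WT A and B and 270 and 80 in miR-379KO A and B. These were 8.31%, 44.4%, 29.1% and 10.7% of its reads, so that WT B and miR-379KO A were again above the others and the genotypes overlapped. In this window 94.8% of the reads were listed with miR-2137. Without WT B, or with each distinct sequence counted once, bases 351 to 400 took the lead.

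The second window of Gm42418, bases 351 to 400 (chr17:39847308-39847357), varied less, with 19.4%, 16.6%, 15.2% and 11.9% of the gene's reads in the 4 libraries. Of its 661 reads, 69.3% were listed with miR-6392-5p. The third, bases 551 to 600 (chr17:39847508-39847557), held 18.1%, 7.87%, 9.71% and 11.3%, and its leading miRNA was miR-145a-5p, with 165 of 507 reads. These ranks are over reads summed over libraries of unequal depth. Bases 101 to 150 (chr17:39847058-39847107), the fourth, named after their values were seen, held 10.9%, 5.73%, 13.4% and 15.8%, above the third in both miR-379KO libraries and above every other window of the gene in miR-379KO B.

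In AY036118 the leading window was bases 701 to 750 (chr17:39847286-39847335), with 21.2%, 26.4%, 27.8% and 14.4% of its reads, and miR-149-3p was listed with 49.3% of them. Bases 201 to 250 (chr17:39847786-39847835) followed with 15.8%, 17.1%, 17.7% and 15.9%, the steadiest of all named windows. There miR-149-3p made up 81.4% of the reads. The third, bases 501 to 550 (chr17:39847486-39847535), held 15.7%, 8.31%, 14.3% and 13.9%, led by miR-1892.

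In Gm26917 the last window, bases 3301 to 3329 (chr17:39846313-39846341), led with 16.7%, 21.1%, 33.1% and 20.5% of the reads. It ends where the gene ends, next to the start of 18S RNA, and 64.4% of its reads were listed with miR-5126. Listed segments cannot reach past this end of the transcript, and the part of that limit in the window's share was not tested. Bases 2851 to 2900 (chr17:39845863-39845912) held 18.6%, 5.38%, 12.01% and 10.5%, led by miR-149-3p with 71.3%. Bases 951 to 1000 (chr17:39843963-39844012) held 5.07%, 7.62%, 9.42% and 11.3%, led by miR-5126 with 54.3%. In every library the last window held a larger share than bases 951 to 1000, but bases 2851 to 2900 exceeded it in WT A.

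The 3 genes were listed with 571 miRNAs, of which 159 had a single read. The 5 most frequent, miR-2137, miR-149-3p, miR-5126, miR-6392-5p and miR-3960, were listed with 40.1% of their reads, and with 2.69% of the reads that held none of the 3 genes. By library the 5 took 30.4% and 53.3% in WT A and B and 49.7% and 33.4% in miR-379KO A and B. Conversely, most chimeric reads of these miRNAs were with the 3 genes: 83.1% for miR-2137, 82.8% for miR-149-3p, 67.7% for miR-5126, 95.8% for miR-6392-5p and 73.7% for miR-3960. The miRNAs were named for these counts, so the shares are a description.

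**Figure D3:**
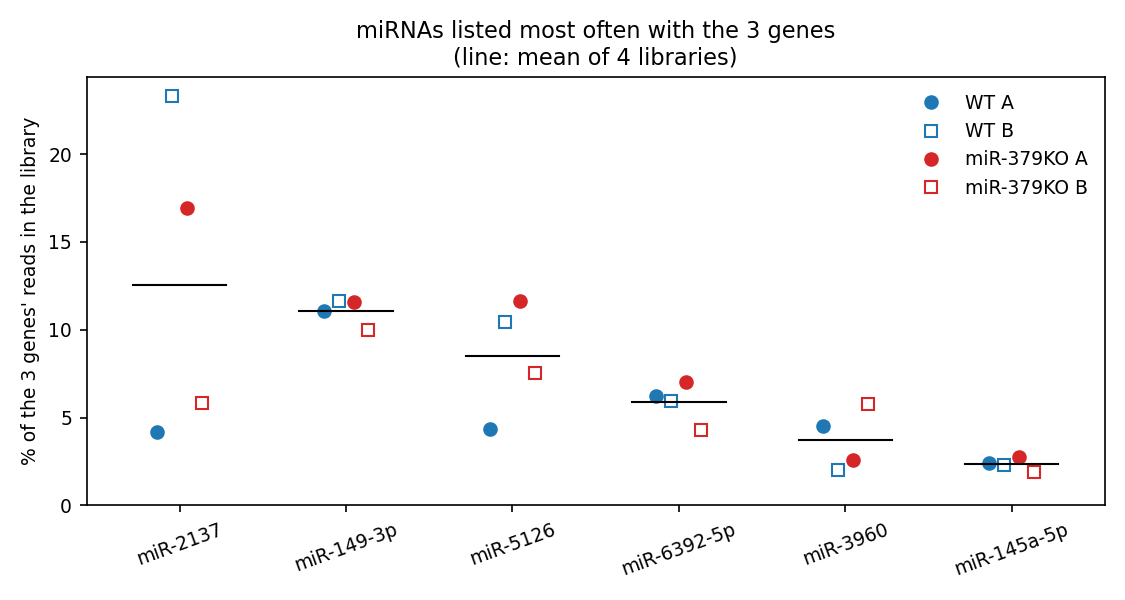
Share of the reads of the 3 genes that were listed with each of the 6 most frequent miRNAs (y axis, % of the 3 genes' reads in the library), with 1 point per library and a line at the mean of 4 libraries. miR-2137 ranges from 4.16% in WT A to 23.3% in WT B, whereas miR-149-3p stays between 9.99% and 11.6%.

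miR-2137 was listed with 120, 409, 269 and 88 reads of the 3 genes, and 854 of these 886 reads were with Gm42418. As a share of the 3 genes' reads this was 4.16%, 23.3%, 16.9% and 5.82%, more than any other miRNA in WT B and miR-379KO A. With each distinct sequence counted once its mean share fell from 12.6% to 7.69% and it ranked 3, and it ranked 2 without WT B or without miR-379KO A. The miRNA segment followed the target in most reads (it came first in 8.58%), and 827 of the 886 reads carried the full 21-nt segment with A16G shown above. That 21-nt segment was not found in the GRCm38 genome outside miRNA hairpins. In 711 of the reads (80.2%) the target began at exactly the same base, 523 of Gm42418, with 77, 339, 243 and 52 reads in the 4 libraries. From that fixed start the target segments ended at 21 different bases and were 23 to 72 nt long. The most frequent read of all 3 genes was of this kind, with bases 523 to 548 of Gm42418 followed by the segment, and was sequenced 11, 98, 55 and 17 times. Its deposited score was 145 and its deposited minimum free energy (MFE) -28.5. A match to the seed was present in 97.2% of the miR-2137 reads.

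miR-149-3p was listed with 320, 204, 184 and 151 reads, and 579 of its 859 reads were with AY036118. It was the steadiest of the 5, at 11.1%, 11.6%, 11.6% and 9.99% of the 3 genes' reads. A seed match on the sequenced strand was found in 0.931% of its reads. Its reads were mostly of 2 kinds: 517 carried the 17-nt sense segment with G7C and A10C, and 276 carried 13 nt in antisense to the mature miRNA, without a mismatch. The 17-nt segment occurs without mismatch once in the copy, at chr17:39847280-39847296, inside 18S RNA and inside the stretch printed above. That position overlaps the leading window of AY036118. On the side away from the target, 33 of the 517 reads held 10 nt, and in 7 of the 33 these bases matched the copy too. With flanks of at most 10 nt on both sides, 0 of the 517 matched the genome outside miRNA hairpins. The flank toward the target holds target bases where the 2 segments adjoin, and reads that aligned to the genome had been removed. Nothing is therefore read from this count.

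miR-5126 was listed with 125, 183, 185 and 114 reads, of which 382 of 607 were with Gm26917. In 240 reads its target segment ended at the last base of Gm26917, with 61, 78, 62 and 39 reads in the 4 libraries. Targets were listed along transcripts, so no segment can reach past this base. Whether the reads run on beyond it was not tested. The segment came first in 9.88% of its reads and was most often either the first 17 nt of the miRNA (263 reads) or 22 nt with C18T (179 reads). Neither occurs in the ribosomal DNA copy as searched here, chr17:39843013-39848788, from the start of Gm26917 to the end of Gm42418. Ribosomal RNA bases outside this stretch were not searched as part of the copy.

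miR-6392-5p was listed with 180, 104, 112 and 65 reads, all with Gm42418. In 459 of 461 reads the segment was the same 12 nt, it preceded the target in 97.6%, and no read had a seed match. The 12 nt occur once in the copy, at chr17:39846311-39846322, near the 3′ end of Gm26917. With the 10 nt of read on the side away from the target, 454 of the 457 reads that had such bases still matched the copy. These reads thus held bases found at the end of the external spacer followed by bases of 18S RNA, and their target segments began most often at base 319 of Gm42418 (195 reads).

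miR-3960 was listed with 131, 35, 41 and 87 reads, and here WT A and miR-379KO B were above the other libraries. The read with the highest count for AY036118 (18, 0, 1 and 12 times) was listed with it. The same 14 nt, with A12C, were found in 268 of its 294 reads and do not occur in the stretch of the copy searched here. With flanks of at most 10 nt, shorter where the read ended sooner, 245 of those 268 matched the genome outside miRNA hairpins. Only 45 of the 268 held 10 nt on the side away from the target, and 42 of the 45 matched with those bases. Of the further miRNAs named by their place within a gene, miR-145a-5p had 69, 40, 44 and 29 reads with Gm42418, and its median aligned length of 23 nt was longer than that of the 5. miR-494-3p had 22, 14, 17 and 46 reads with AY036118, and miR-6937-5p 15, 27, 34 and 39 with Gm26917.

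Whether the miRNA segments came with ribosomal RNA bases was counted for all reads. Among the reads of the 3 genes, the miRNA segment was found without mismatch on the plus strand of the copy in 17.5% and 18.3% of reads in WT A and B and in 23.1% and 22.4% in miR-379KO A and B. On the opposite strand it was found in 0.134% ± 0.0619 (SD, n = 4). Among reads with no ribosomal RNA gene the plus-strand shares were 4.25%, 3.22%, 5.67% and 7.18%, below the 3 genes in every library. Among reads with only another ribosomal RNA gene they were 23.1%, 28.5%, 29.95% and 31.6%, above the 3 genes in every library. The 1533 reads of the 3 genes with such a segment were listed with 35 miRNAs, and miR-149-3p and miR-6392-5p made up 34.0% and 29.9% of them. The matched segments were 12 to 17 nt long. By gene, the share was 18.4%, 33.5%, 38.8% and 34.1% in the 4 libraries for AY036118, which was above Gm42418, at 15.8%, 14.6%, 18.8% and 17.7%, in every library. For Gm26917 it was 22.0%, 11.2%, 18.2% and 19.7%, so that AY036118 was below Gm26917 in WT A.

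**Figure D4:**
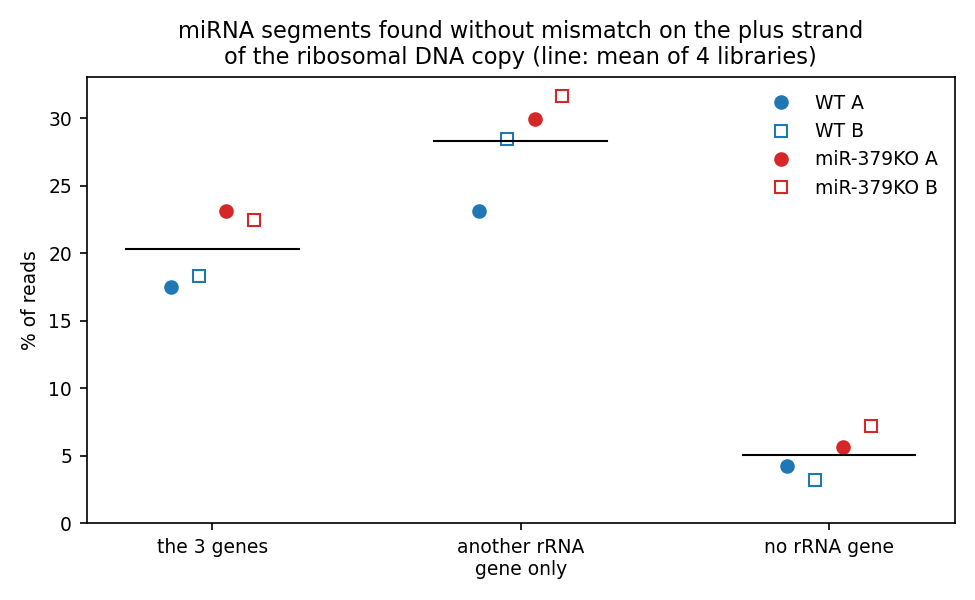
Share of reads (y axis, %) whose miRNA segment occurs without mismatch on the plus strand of the ribosomal DNA copy, for reads listed with the 3 genes, with another ribosomal RNA gene only and with no ribosomal RNA gene. Points are libraries and lines are means of 4 libraries; in every library the 3 genes lie above the reads with no ribosomal RNA gene and below those with another ribosomal RNA gene only.

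In the genome as a whole, the miRNA segment with up to 10 nt of read on each side matched outside miRNA hairpins in 32.3% ± 9.94 (SD, n = 4) of the reads of the 3 genes and in 40.8% ± 7.11 of the reads with no ribosomal RNA gene. With 10 nt on the side away from the target only, where a read had them, the shares were 71.2% ± 9.16 and 80.2% ± 5.81. Both shares were lower for the 3 genes in 4 of 4 libraries. For reads with only another ribosomal RNA gene they were 45.0% ± 9.15 and 70.6% ± 8.97, so that the 3 genes were lower in 4 of 4 libraries by the first share and had no common direction by the second. What these matches contribute to the miRNA counts above was not tested.

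The pairs were compared with those of all other target genes and of the other ribosomal RNA genes in the same libraries, by 12 exact paired sign-flip permutation tests, two-sided, for which 4 libraries cannot go below a p of 0.13. The annotated strands fix the outcome of 1 of the 12, target sense against the other ribosomal RNA genes, and nothing is read from it. They also set the 3 genes' side of target sense against the other target genes, and nothing is read from that test either. With p-values adjusted over the 11 tests without the first of these, each adjusted exact p of 0.375 below becomes 0.458. The median deposited MFE of the 3 genes was -26.8 and -27.6 in WT A and B and -27.3 and -27.1 in miR-379KO A and B, against -23.5 in every library for the other target genes. It was lower in 4 of 4 libraries, with differences of -4.13 to -3.25 (exact p 0.13, adjusted p 0.375). Against the other ribosomal RNA genes, whose median was -26.7 ± 1.32 (SD, n = 4), the difference was -0.453 and had no common direction (exact p 0.625, adjusted p 0.833). With miRNA alignments of at least 16 nt it was -6.61, below 0 in 4 of 4 libraries (exact p 0.13, not adjusted). For Rn18s-rs5, which holds most reads of the other ribosomal RNA genes, the deposited site was the complement of the sequenced segment in 76.5% of distinct reads, so this MFE too mostly describes bases that the reads do not contain. Among the 3 genes Gm26917 had the lowest median MFE, -30.01 ± 0.734, with -27.9 ± 1.43 for AY036118 and -26.9 ± 0.425 for Gm42418. The target segments of the 3 genes also held more G and C, with a median GC content of 61.8% ± 2.996 for the 3 genes and 52.4% ± 0.699 for other target genes; its part in the MFE was not tested. Over single reads the MFE ran from -40.7 to -10.1 for Gm42418, from -37.8 to -10.4 for AY036118 and from -49.2 to -11.9 for Gm26917.

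The target segment was in sense in 73.2% ± 5.12 of the reads of the 3 genes and in 71.5% ± 0.642 of those of the other target genes (exact p 0.5, adjusted p 0.75). The difference turned to -12.3 percentage points against target genes other than ribosomal RNA. Gm42418 and Gm26917 were wholly in sense and AY036118 almost wholly in antisense, so the share of the 3 genes restates how their reads divide between them. Nothing is read from this test or from its turn of sign. Against the other ribosomal RNA genes, the share was 7.63% ± 3.37, which restates the strands on which Rn18s-rs5 and the 3 genes are annotated. The miRNA segment was in sense in 72.8% ± 4.56, which was 1.90 points above the other target genes, with libraries on both sides (exact p 0.5, adjusted p 0.75), and 22.4 points above the other ribosomal RNA genes in 4 of 4 libraries (exact p 0.13, adjusted p 0.375). Within the 3 genes it was in sense in 81.8% ± 6.00 for Gm42418, 85.3% ± 3.58 for Gm26917 and 44.9% ± 4.43 for AY036118, and the last lay below both others in every library. In the bases that Gm42418 and AY036118 share, the miRNA was in sense in 85.9% of the reads listed with Gm42418 alone and in 43.8% of those listed with AY036118.

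**Figure D5:**
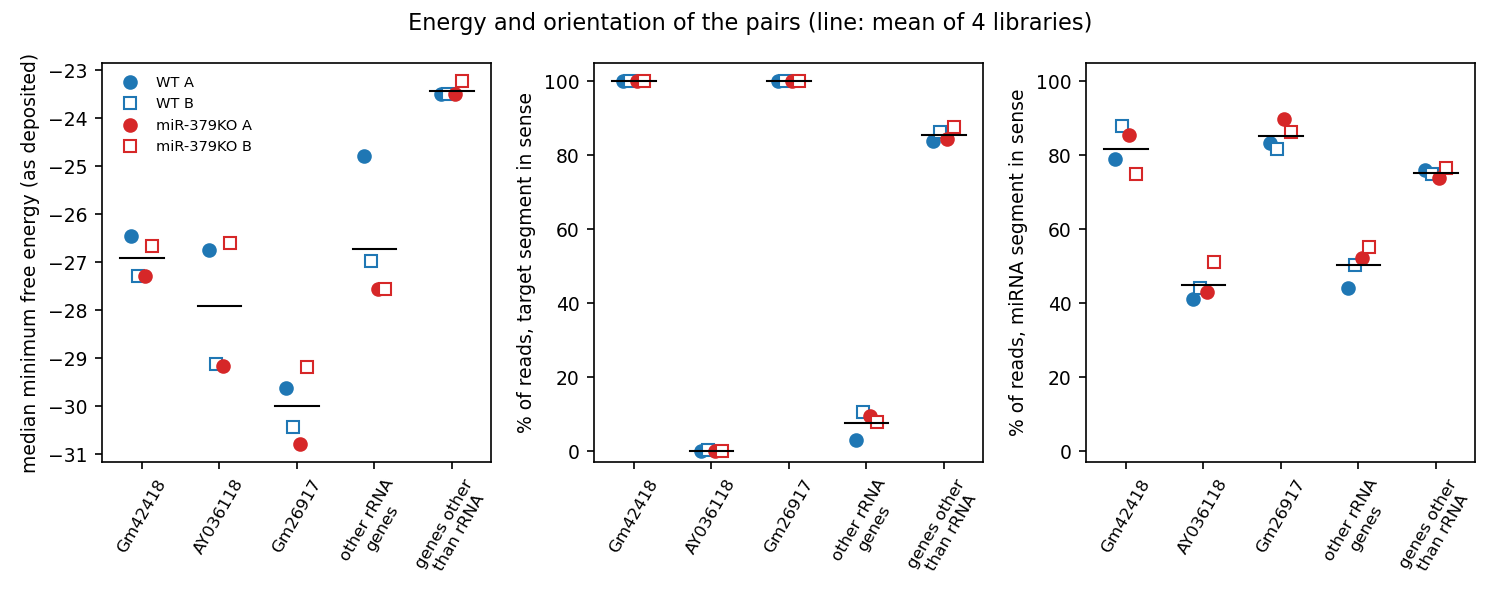
Median deposited MFE, share of reads with the target segment in sense and share with the miRNA segment in sense, for each of the 3 genes, the other ribosomal RNA genes and target genes other than ribosomal RNA. Points are libraries and lines are means of 4 libraries; AY036118 lies at 0% to 0.238% for the target segment and below Gm42418 and Gm26917 for the miRNA segment.

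A seed match was found in 27.6% ± 7.58 of the reads of the 3 genes and in 24.8% ± 0.613 of the other target genes' reads, with libraries on both sides (exact p 0.5, adjusted p 0.75). The difference of 2.76 points was 0.414 without WT B and 5.67 without WT A, and it was 5.71 with bases 2 to 8 as the seed. The seed-match share exceeded that of the other ribosomal RNA genes in 4 of 4 libraries, by 21.1 points on average (exact p 0.13, adjusted p 0.375). With miRNA alignments of at least 16 nt this difference was -1.86 points. On the strand of the annotated transcript, to which most reads of the other ribosomal RNA genes are antisense, the difference was 10.8 points (35.2% against 24.5%). The median aligned length of the miRNA segment was 13 to 15 nt in the 4 libraries and 14 nt for both sets of other genes (exact p 1 and adjusted p 1 for each). The miRNA segment came first in the read in 49.6% ± 7.25, against 50.6% ± 1.90 for other target genes (exact p 0.875, adjusted p 1; -17.4 points and below in 4 of 4 libraries with alignments of at least 16 nt) and 41.4% ± 4.09 for other ribosomal RNA genes (exact p 0.25, adjusted p 0.6), where the difference turned from 8.26 to -15.8 points with alignments of at least 16 nt. Among the 3 genes, in the same order in every library, the miRNA came first in 70.6% ± 1.99 of the reads of AY036118, in 47.8% ± 11.5 of Gm42418 and in 28.8% ± 2.201 of Gm26917. The miRNA segment was identical to the mature miRNA in 42.6% ± 3.01 of the 3 genes' reads and in 58.9% ± 0.860 of the other target genes' reads, and in 37.3% ± 2.05 of the other ribosomal RNA genes' reads, differences that were not tested.

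Finally, the same sequence was seen in more than 1 library for 238 of the 5468 different sequences of the 3 genes (4.35%), and 21 of them were seen in all 4. Among the sequences of other target genes, 1.69% were seen in more than 1 library. The number of reads for each distinct sequence differs between the sets and was not adjusted for.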

How the data were processed

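The chimeric reads of the 4 libraries were used as deposited. The authors merged read pairs, removed merged reads that Bowtie2 2.1.0 (named in the submitters' processing notes) could align to the genome or to transcripts, and searched the rest on both strands for a mature miRNA and a transcript. The count of a read, deposited without normalization, is the number of merged reads with its exact sequence. The score and the minimum free energy of each pair are those that the authors deposited; their tool and unit are not given in the sources used here.

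Each distinct read was counted once per gene and library, and its highest-scoring listing gave its measures. Genes with at least 10 reads were tested with edgeR 4.0.16 (TMM, genotype only, Benjamini-Hochberg, threshold 0.05) in R 4.3.3, with DESeq2 1.42.0 as an alternative. Other steps used Python 3.11.15, pandas 2.3.3, numpy 2.4.6, scipy 1.17.1 and matplotlib 3.10.9. Intervals and the floor of 3 reads cover counting error only, since reads carry no molecular identifiers. Other ribosomal RNA genes were the 70 with such a name or annotated type. Target segments were placed by their midpoint with GENCODE vM21 models of GRCm38, on the transcript with the most distinct reads. Segments were searched in GRCm38 without mismatch, outside annotated miRNA hairpins. The ribosomal DNA copy was searched over 5776 nt, chr17:39843013-39848788, from the start of Gm26917 to the end of Gm42418. Named miRNAs were the 5 with the most reads over the 3 genes and the 3 with the most for each gene, beside miR-379; named windows and reads were likewise those with the most reads. The test was tried on simulated counts: where 189 of 583 genes were given a log2 change of 3 at a dispersion of 0.22, it found 120 of them and called 4 others. That change is far larger than those seen for the 3 genes. The trial thus does not show whether changes as small as theirs would be found. The members, lists and rules were chosen with earlier results of these data known.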

Additional observations from a re-analysis of the deposited data

How the results depend on the processing

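No genotype effect on the 3 genes passed the threshold under any alternative run; adjusted p-values came from edgeR or DESeq2. With no minimum count, where the median over all genes rises from 0.25 to 2.096, the log2 fold change turned to 0.30 for AY036118 and to 0.04 for the 3 genes as 1 feature, and moved to -0.05 for both Gm42418 and Gm26917. AY036118 has no value with both segments in sense, since its reads are antisense. The libraries share only a letter (correlation over genes of the deviations -0.0669), and with a replicate block the values were -0.43 for Gm42418, -0.14 for AY036118 and -0.44 for Gm26917. Leaving out each library gave -0.64 to -0.35, -0.39 to -0.07 and -0.95 to -0.04. With miRNA alignments of at least 16 nt, edgeR called 1 gene of 353 in place of 0, Cxcl12, a chemokine, with a log2 fold change of -4.82 (SE 1.26, adjusted p 0.0476). It is none of the 3 and was named after its value was seen. The share of reads with any of the 3 genes differed by -6.57 to 0.133 points when each library was left out. The replicate block kept it at -3.22 points, from -7.48 within A and 1.04 within B.

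Against other target genes, the difference in target sense turned to -7.30 points with alignments of at least 16 nt and to -12.3 points against genes other than ribosomal RNA. Nothing is read from these turns, since the annotated strands set the values of the 3 genes. The difference in miRNA sense turned to -0.0167 points with distinct sequences and -2.54 points against genes other than ribosomal RNA, where the seed-match difference turned to -1.24 points. Leaving out each library gave miRNA-sense differences of 0.270 to 3.83 points. With alignments of at least 16 nt the miRNA-sense difference was 3.95 points, above 0 in 4 of 4 libraries. The read-order difference ranged from -4.48 to 1.98 points when each library was left out and was -17.4 points with alignments of at least 16 nt. Against other ribosomal RNA genes, alignments of at least 16 nt turned the seed match to -1.86 and read order to -15.8 points and moved the MFE difference from -0.453 to -6.61, while leaving out each library gave MFE differences of -0.773 to 0.0467. The seed match on the transcript strand gave 10.8 points in place of 21.1.

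With alignments of at least 16 nt, the miRNA shares moved to 30.7% for miR-2137, 20.9% for miR-149-3p, 18.2% for miR-5126, 0.931% for miR-3960 and 0% for miR-6392-5p, whose segment is shorter. With each distinct sequence counted once, miR-2137 moved from 12.6% to 7.69%. Genome matches moved to 42.7% with a flank of 5 nt and to 71.2% with a flank away from the target only. The comparison with genes other than ribosomal RNA, the flank on 1 side, the seed on the transcript strand, the pairing by reads per distinct sequence and the adjustment over 11 tests were chosen after seeing the data. Depth limits shares below 1.84 (WT A) to 4.74 (miR-379KO A) per 10000 reads. The cause of these changes was not tested.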
